A study of Mus musculus with 24 samples.

Results

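DNA methylation in mouse blood stem and progenitor cells was followed through the mRNAs of 9 genes: the methyltransferases Dnmt1, Dnmt3a and Dnmt3b, the hemimethylated-DNA reader Uhrf1, the dioxygenases Tet1, Tet2 and Tet3, and the DNA glycosylases Tdg and Mbd4. They were taken by gene symbol from the count table of each library, so that they make up 9 of 23364 genes listed, and all 9 were among the 21456 genes with enough reads to test. The libraries are RNA-seq of bone marrow cells from C57BL/6 mice aged 8 to 12 weeks, sorted within the lineage-negative fraction for Kit, Sca-1 and CD150 and against Flt3. CD34 and CD48 then divided these cells into HSC (haematopoietic stem cells, negative for both), MPP1 (multipotent progenitors with CD34 and without CD48) and MPP2 (progenitors with both). KO libraries (n = 3 in each cell type) came from Mysm1 fl/fl mice with the tamoxifen-inducible recombinase CreERT2, in which exon 3 of Mysm1, the gene of a histone deubiquitinase, is deleted by tamoxifen. Het libraries (n = 3) came from mice with 1 floxed and 1 intact Mysm1 allele and CreERT2, and had the tamoxifen course of the KO mice (0.15 mg/g, injected 8 times within 16 days). Sham libraries (n = 2) came from Mysm1 fl mice that received corn oil, for which the labels name no Cre, so that KO and Sham differ in tamoxifen as well as in the deletion. Each library held cells pooled from several mice of both sexes, and p-values therefore measure the spread between pools. The promoter that drives CreERT2 is not given in the sources used here.

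DNA methylation at CpG dinucleotides is copied at each round of replication: UHRF1 recognises the half-methylated daughter strands and recruits DNMT1, which methylates the new strand. DNMT3A and DNMT3B methylate DNA that carried no mark before, and the TET enzymes oxidise methylated cytosine, whose oxidised forms are diluted by replication or cut out by TDG and replaced through base excision repair. In blood, Dnmt1 is needed to keep stem and progenitor cells, loss of Dnmt3a or Tet2 in mice expands stem cells, and DNMT3A and TET2 are among the genes most often mutated in human clonal haematopoiesis.

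Depth was 18823971 to 53196624 counts per library. Fewest genes were detected in HSC KO library 1 (15740 genes) and HSC Het library 2_3 (15932 genes), and results in HSC are therefore also given without them. Mysm1 itself, counted over the whole gene, differed between KO and Het by -0.18 in HSC, -0.20 in MPP1 and -0.15 in MPP2 on the log2 scale and passed the test in none of them. The deleted exon is a small part of the transcript, so these counts hardly test the labels. Among the sort markers, Cd48 stood at 34.0 to 56.9 CPM (counts per 1000000 counts of the library, whose size was scaled by the trimmed mean of M values) in MPP2 KO and 13.8 to 24.1 CPM in MPP2 Het libraries, while its mean was 0.626 to 1.55 CPM in the HSC groups and 0.949 to 2.28 CPM in the MPP1 groups. No sort marker passed the test in MPP1 against HSC in Het, where Ly6a (log2 difference -1.11) and Kit (-0.30) were nearest. In MPP2 against HSC in Het, where 18% of all genes were called, Procr (-5.09), Ly6a, which encodes Sca-1 (-3.18), Slamf1 (-0.88) and Kit (-0.68) fell.

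Levels between genes were compared per kilobase of annotated exons, as the mean over all 24 libraries. Dnmt1 was the most abundant of the 9 at 151 CPM per kb, followed by Uhrf1 at 52.8 and Dnmt3b at 17 CPM per kb. Dnmt3a (10.1), Tet3 (9.48), Mbd4 (9.24) and Tet2 (7.78) lay close together, Tet1 stood at 4.21 and Tdg at 0.181 CPM per kb. With the gene lengths written in the count tables instead, Dnmt1 and Uhrf1 remained the highest pair and Tdg the lowest, while Dnmt3b moved down to 2.32 CPM per kb, the length written for it being 37348 bases and that of its annotated exons 5106 bases.

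**Figure D1:**
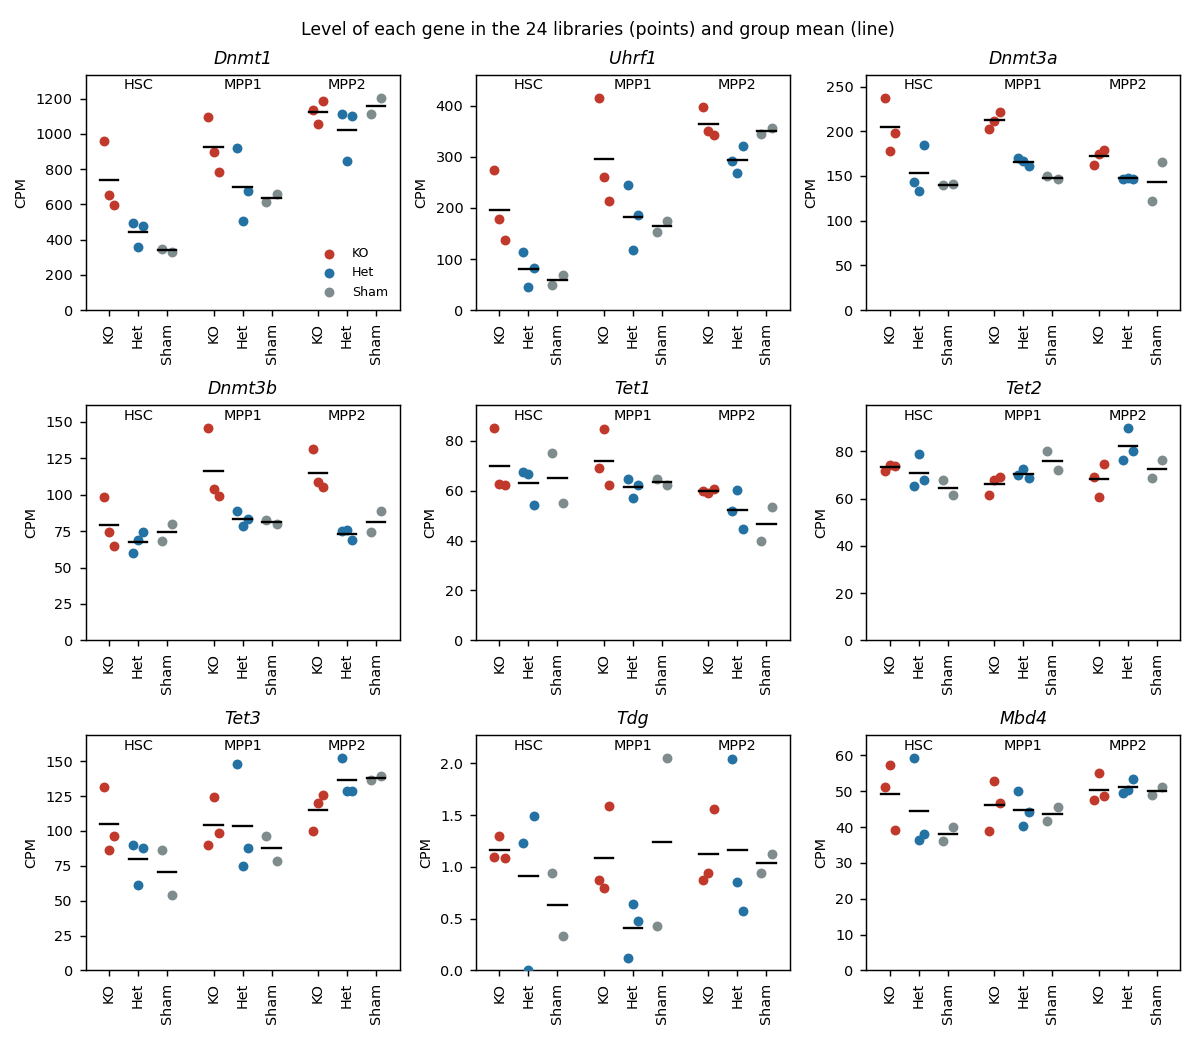
CPM of each of the 9 genes (vertical axes, linear from 0) in the 24 libraries, by cell type and by KO, Het and Sham; points are libraries and black lines group means. Dnmt1 and Uhrf1 climb across HSC, MPP1 and MPP2, their KO points in HSC lie above all Het and Sham points, and Tdg stays at or below 2.05 CPM.

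In KO against Het, the comparison in which both groups received tamoxifen, 0 of the 9 genes passed an adjusted p of 0.05 in HSC, MPP1 or MPP2 (edgeR's quasi-likelihood test with Benjamini-Hochberg adjustment over all genes tested). Among all genes tested, 0.615% passed in HSC, 0.0559% in MPP1 and 0.415% in MPP2. An unadjusted p under 0.05 was reached by 3 of the 9 in HSC (Dnmt1, Uhrf1 and Dnmt3a, where 14.5% of all genes reached it), by 3 in MPP1 (Dnmt1, Dnmt3a and Dnmt3b, 8.67% of all genes) and by 1 in MPP2 (Dnmt3b, 5.63% of all genes), all with the higher level in KO. DESeq2 called 2 of the 9 in HSC (Dnmt1 and Uhrf1), 0 in MPP1 and 1 in MPP2 (Dnmt3b). With the replicate number as a block, edgeR's test called the same genes. The median log2 difference of the 9 was 0.35 in HSC, 0.35 in MPP1 and 0.14 in MPP2, against 0.026, -0.11 and -0.059 over all genes tested. In KO against Sham, Dnmt1 and Uhrf1 rose in HSC and 0 of the 9 passed in MPP1 or MPP2. Among all genes tested, 2.28% passed in that comparison in HSC (1.9% with a rise), 0.121% in MPP1 and 0.629% in MPP2. An unadjusted p under 0.05 against Sham was reached by 4 of the 9 in HSC (Dnmt1, Uhrf1, Dnmt3a and Tet3, 14.9% of all genes), 4 in MPP1 (Dnmt1, Uhrf1, Dnmt3a and Dnmt3b, 10.4% of all genes) and 1 in MPP2 (Dnmt3b, 5.73% of all genes), and DESeq2 called 3, 0 and 0 of the 9. KO libraries are shared by the comparisons with Het and with Sham, and these are therefore not independent of each other. Het against Sham gave 0 calls among the 9 and 0 among all genes (0% in each cell type). In these 3 comparisons 0 of the 9 had an unadjusted p under 0.05 in edgeR's test (6.92%, 0.965% and 5.32% of all genes in HSC, MPP1 and MPP2), and DESeq2 called 0 of them.

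**Figure D2:**
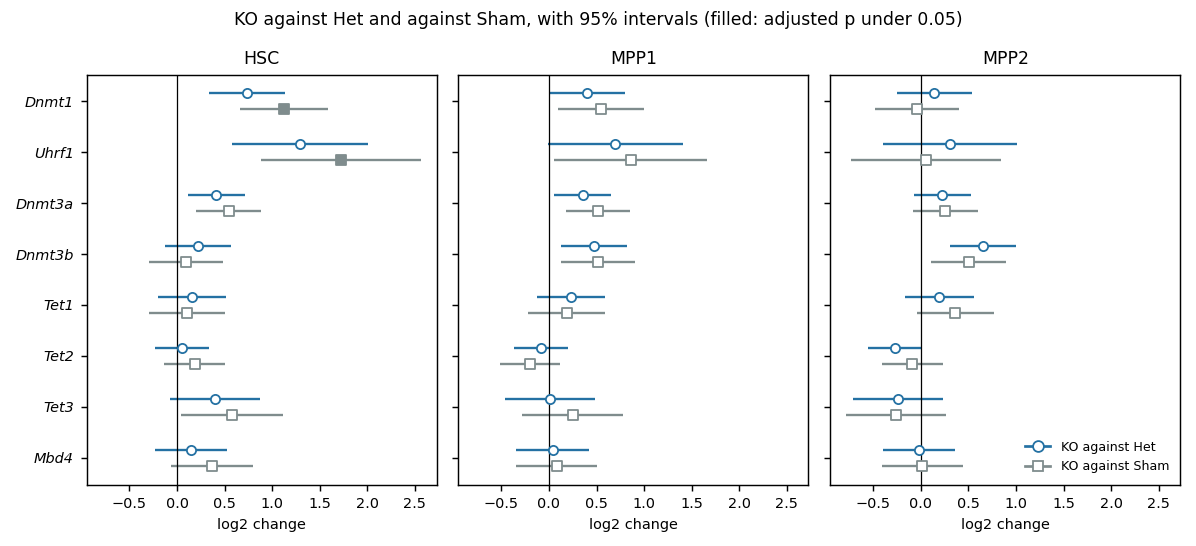
Log2 change (horizontal axes) of 8 of the 9 genes in KO against Het (circles) and KO against Sham (squares) in HSC, MPP1 and MPP2; bars are approximate 95% intervals, and filled symbols mark an adjusted p under 0.05. The filled squares are Dnmt1 (1.12) and Uhrf1 (1.72) in HSC; Tdg is left out because its intervals run from -2.23 to 2.93 in HSC for KO against Het.

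Dnmt1, the maintenance methyltransferase (mm9, chromosome 9, 20711650 to 20757317, minus strand), stood in HSC at 958, 654 and 599 CPM in KO libraries 1, 2_3 and 4, against 491, 356 and 478 CPM in Het libraries 1, 2_3 and 4 and 346 and 330.2 CPM in Sham libraries 2_3 and 4. Every KO library lay above every Het and every Sham library. The log2 difference was 0.74 ± 0.19 (SE, n = 3 and 3) against Het, with an adjusted p of 0.0564, and 1.12 ± 0.22 (n = 3 and 2) against Sham, a 2.18-fold rise with an adjusted p of 0.00726. In bulk libraries such as these, fewer cells of a type and less RNA per cell cannot be told apart. In MPP1 the KO libraries held 1093, 897 and 784 CPM, the Het libraries 921, 508 and 675 CPM and the Sham libraries 613 and 657 CPM. KO libraries 2_3 and 4 lay there below Het library 1, with a log2 difference of 0.40 ± 0.19 (adjusted p = 0.57), and all KO libraries lay above both Sham libraries, by 0.54 ± 0.21 (adjusted p = 0.345). In MPP2 the values were 1136, 1058 and 1186 CPM in KO, 1116, 844 and 1102 CPM in Het and 1111 and 1203 CPM in Sham libraries, and the 3 groups overlapped (log2 difference 0.14 ± 0.19 against Het, adjusted p = 0.993).

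Uhrf1 (mm9, chromosome 17, 56442744 to 56462909, plus strand), which brings DNMT1 to newly replicated DNA, had the widest KO difference of the 9 in HSC. Its level there was 273, 179 and 138 CPM in KO libraries, against 114, 44.5 and 82.7 CPM in Het and 49.8 and 69.6 CPM in Sham libraries, again with no overlap. The log2 difference was 1.29 ± 0.34 against Het (adjusted p = 0.0864) and 1.72 ± 0.39 against Sham, a 3.3-fold rise (adjusted p = 0.0311). Dnmt1 and Uhrf1 were thus the 2 of 9 genes whose HSC KO libraries all lay above the Het libraries, a pattern seen in 7.16% of all genes. MPP1 held 415, 261 and 214 CPM of Uhrf1 in KO, 246, 118 and 185 CPM in Het and 154 and 174 CPM in Sham libraries. KO library 4 lay below Het library 1, and the log2 difference from Het was 0.70 ± 0.33 (adjusted p = 0.574). MPP2 held 398, 351 and 342 CPM in KO, 291, 269 and 321 CPM in Het and 344 and 357 CPM in Sham libraries, with KO above Het in every library but a log2 difference of 0.31 ± 0.33 (adjusted p = 0.993). Of the 3377 windows of 50 bases in the exons of Uhrf1, 23.068% also occur elsewhere in the genome, so part of its count depends on how reads with several matches were assigned.

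Leaving out single libraries moved both HSC results across the threshold. Against Het, the log2 difference of Dnmt1 was 0.50 without HSC KO library 1 (adjusted p = 0.386) and 0.60 without HSC Het library 2_3, and that of Uhrf1 was 0.98 (adjusted p = 0.372) and 1.00. Without both libraries Dnmt1 differed by 0.37 (adjusted p = 0.759) and Uhrf1 by 0.69 (adjusted p = 0.736). Leaving out HSC Het library 1 brought both past the threshold, with Dnmt1 at 0.82 (adjusted p = 0.0451) and Uhrf1 at 1.63 (adjusted p = 0.0304), and leaving out HSC KO library 4 brought Dnmt1 past it (0.87, adjusted p = 0.0419). Against Sham, both calls were lost without HSC KO library 1 (Dnmt1 0.89, adjusted p = 0.0606; Uhrf1 1.41, adjusted p = 0.137). They were also lost without Sham library 2_3 (Dnmt1 1.10, adjusted p = 0.114; Uhrf1 1.43, adjusted p = 0.357) and without Sham library 4 (Dnmt1 1.09, adjusted p = 0.0536; Uhrf1 1.99, adjusted p = 0.0866). With 1 Sham library left out, the other was assumed to vary like the other groups, and the difference of Dnmt1 stayed near its value of 1.12 from all libraries. Both calls held without HSC KO library 2_3 (Dnmt1 1.20, adjusted p = 0.0102 and Uhrf1 1.79, adjusted p = 0.04) and without HSC KO library 4 (Dnmt1 1.25, adjusted p = 0.00491 and Uhrf1 1.92, adjusted p = 0.0198). Without both libraries with few detected genes the 2 rises against Sham were called, at 0.89 for Dnmt1 and 1.41 for Uhrf1 (adjusted p = 0.0438 for both). HSC Het library 2_3 is not part of this comparison, and the differences are those without HSC KO library 1 alone, where both calls were lost. The calls therefore depended on a library outside the comparison.

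Dnmt1 and Uhrf1 are textbook targets of the E2F factors, which switch on replication genes as cells enter S phase, and the promoter windows of the 9 genes were therefore read for E2F-type sites. The windows run from 250 bases before to 50 after each start site annotated by RefSeq (GRCm38.p6), of which the 9 genes have 14. The motifs TTTCCCGC, TTTGGCGC, TTTCGCGC and TTTGCCGC were searched on both strands and were found in 2 of the 14 windows, 1 of Dnmt1 and 1 of Uhrf1, printed here 5′ to 3′ in the direction of the gene with the matches in capitals. The Dnmt1 window lies at chr9:20952574-20952873 on the minus strand, with matches beginning at positions -219 and 33 from its start site. The Uhrf1 window lies at chr17:56304063-56304362 on the plus strand, with a match beginning at position -185.
Dnmt1: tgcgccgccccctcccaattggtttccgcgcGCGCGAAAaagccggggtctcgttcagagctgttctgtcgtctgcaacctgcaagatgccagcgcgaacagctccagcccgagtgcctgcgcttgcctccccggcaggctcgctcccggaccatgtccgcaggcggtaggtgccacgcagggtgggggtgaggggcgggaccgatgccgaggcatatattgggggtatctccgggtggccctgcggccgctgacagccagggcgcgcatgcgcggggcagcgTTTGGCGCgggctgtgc
Uhrf1: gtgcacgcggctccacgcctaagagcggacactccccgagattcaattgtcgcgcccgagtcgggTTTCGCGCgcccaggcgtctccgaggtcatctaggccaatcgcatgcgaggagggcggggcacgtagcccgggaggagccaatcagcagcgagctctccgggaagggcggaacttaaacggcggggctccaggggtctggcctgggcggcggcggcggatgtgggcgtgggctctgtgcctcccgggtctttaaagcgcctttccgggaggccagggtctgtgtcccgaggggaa
Such a match was present in 744 of 32851 windows of the same length (2.26%). The motifs share most of their letters, and a match describes the sequence and shows no binding. Each of the 2 windows holds 33 CpG dinucleotides, against a median of 7 over all windows. Windows of the 9 genes without a match hold from 2 (Dnmt1) to 57 (Tet2), so this number does not set the 2 apart.

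Genes of DNA replication moved with Dnmt1 and Uhrf1. Of 20 S phase genes, 4 rose and 0 fell in HSC KO against Het (Mcm2, Mcm3, Prim1 and Chaf1a), beside 0.615% of all genes called, with a median log2 difference of 0.84, and 0 passed in MPP1 (median 0.53) or MPP2 (median 0.21). In KO against Sham, 11 of the 20 rose and 0 fell in HSC, beside a rise of 1.9% of all genes. The count in KO against Het was 0 without HSC KO library 1 (median 0.58), without HSC KO library 2_3 (0.93), without HSC Het library 2_3 (0.65) or without both libraries with few detected genes (0.44), 2 without HSC Het library 4 and 11 without HSC Het library 1. Against Sham, leaving out HSC KO library 1 brought the count to 1, HSC Sham library 2_3 to 0, HSC Sham library 4 to 7 and both libraries with few detected genes to 4. Mcm2 and Mcm3, parts of the replicative helicase, rose by 0.88 ± 0.20 (adjusted p = 0.0323) and 0.75 ± 0.18 (adjusted p = 0.0457). Prim1, the primase subunit, rose by 1.17 ± 0.27 (adjusted p = 0.0422) and Chaf1a, of the chromatin assembly factor, by 0.74 ± 0.18 (adjusted p = 0.0438). The summed level of the 20 genes in HSC was 4287, 3938 and 2850.1 CPM in KO libraries 1, 2_3 and 4, against 3246, 1874 and 2032 CPM in Het libraries 1, 2_3 and 4 and 2033 and 2393 CPM in Sham libraries 2_3 and 4. KO library 4 was below Het library 1 in this sum, so that the groups overlapped. MPP1 sums ran over 3555 to 5446 CPM in KO, 3036 to 4597 CPM in Het and 3119 to 3547 CPM in Sham, and MPP2 sums over 5190.0 to 5590.5 CPM in KO, 4535 to 5217 CPM in Het and 5309 to 5437 CPM in Sham. The 20 genes were also averaged as log2 CPM in each library. Within a cell type, over its 8 libraries of all 3 genotypes, this mean was correlated (Pearson's r) with the log2 CPM of single genes. For Uhrf1 r was 0.99 in HSC, 0.99 in MPP1 and 0.97 in MPP2, and for Dnmt1 it was 0.94, 0.98 and 0.69. With Dnmt3a r was 0.78 in HSC, 0.65 in MPP1 and 0.13 in MPP2, and with Tet2 it was 0.11, -0.80 and -0.70. In the same order, r was 0.45, 0.91 and 0.63 with Dnmt3b and 0.73, 0.51 and -0.54 with Tet3. It was 0.37, 0.61 and -0.14 with Tet1, 0.79, 0.17 and -0.28 with Mbd4, and 0.56, -0.075 and -0.14 with Tdg. These values share libraries and their scaling and are given as a description. The part of the S phase genes in the KO differences of Dnmt1 and Uhrf1 was not tested.

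**Figure D3:**
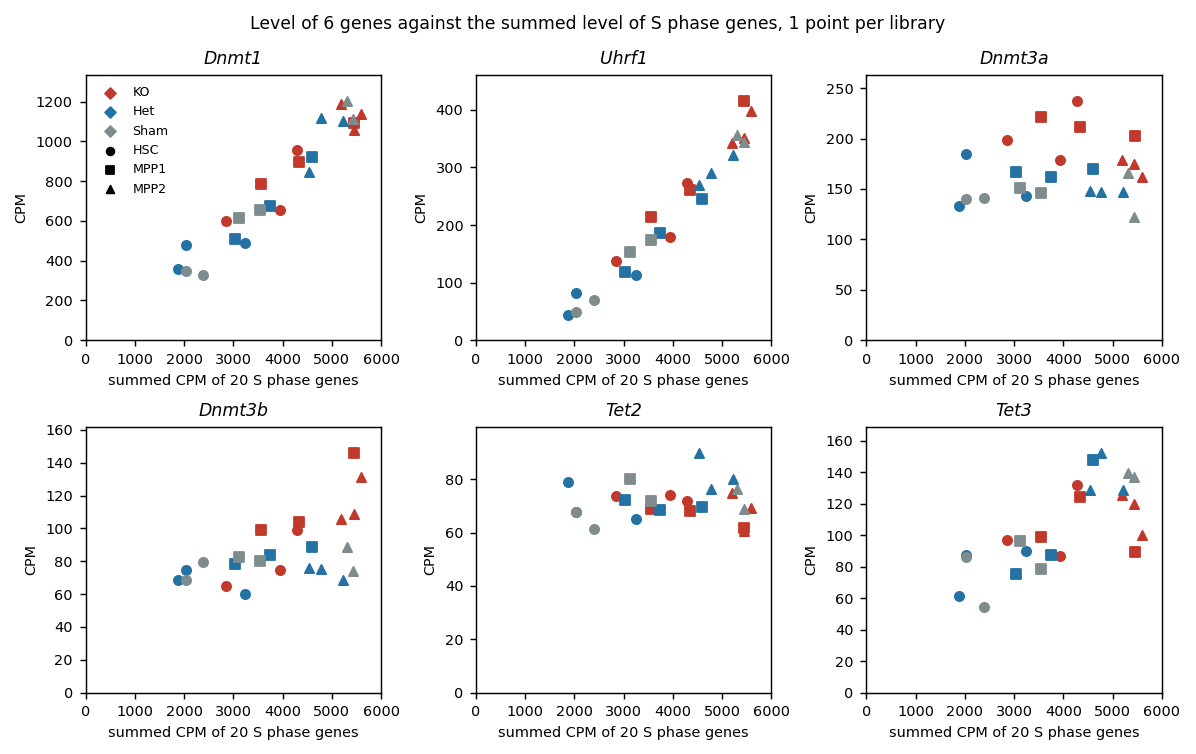
CPM of 6 of the 9 genes (vertical axes) against the summed CPM of 20 S phase genes (horizontal axes) in each of the 24 libraries; colours mark KO, Het and Sham, and circles, squares and triangles mark HSC, MPP1 and MPP2. Dnmt1 and Uhrf1 points of all genotypes lie along 1 rising band. Over all 24 libraries, r was taken between log2 CPM and the mean log2 CPM of the 20 genes. It was 0.98 for Dnmt1, 0.99 for Uhrf1, 0.77 for Tet3, 0.58 for Dnmt3b, 0.24 for Dnmt3a and 0.065 for Tet2.

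Dnmt3a (mm9, chromosome 12, 3806007 to 3914443, plus strand), a methyltransferase that sets new marks, was read at 237, 178 and 198 CPM in HSC KO libraries, against 143, 133 and 185 CPM in Het and 139.8 and 141 CPM in Sham libraries. KO and Het overlapped through Het library 4, with a log2 difference of 0.41 ± 0.14 (adjusted p = 0.166). MPP1 libraries held 203, 212 and 222 CPM in KO, 170.2, 167 and 161 CPM in Het and 150.5 and 146 CPM in Sham. Every KO library there lay above every Het and Sham library, by 0.35 ± 0.14 against Het (adjusted p = 0.529) and 0.52 ± 0.16 against Sham (adjusted p = 0.212). MPP2 held 162, 175 and 179 CPM in KO, 147, 148 and 147 CPM in Het and 122 and 166 CPM in Sham libraries, with KO above Het in every library (log2 difference 0.22 ± 0.14, adjusted p = 0.993). KO means were thus above Het means in all 3 cell types. In HSC KO against Sham, Dnmt3a missed the threshold (0.54 ± 0.16, adjusted p = 0.062) and was made by DESeq2 (adjusted p = 0.0207). Dnmt3a shares part of its span with a transcript on the other strand, and whether counting used strand is not given in the sources used here.

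Dnmt3b (mm9, chromosome 2, 153475186 to 153513466, plus strand), the second methyltransferase that sets new marks, separated KO from Het libraries in both progenitor populations and not in HSC. HSC libraries held 98.7, 74.4 and 64.6 CPM in KO, 60.1, 68.8 and 74.5 CPM in Het and 68.6 and 79.6 CPM in Sham, and the groups overlapped (log2 difference 0.22 ± 0.16 against Het, adjusted p = 0.57). In MPP1 the KO libraries held 146, 104 and 99 CPM, the Het libraries 88.9, 78.5 and 83.5 CPM and the Sham libraries 82.7 and 80 CPM, with every KO library above every other library (log2 difference 0.47 ± 0.16 against Het, adjusted p = 0.416). MPP2 showed the same order at 131, 109 and 106 CPM in KO, 75.2, 75.8 and 68.8 CPM in Het and 74.1 and 88.6 CPM in Sham libraries. There the log2 difference was 0.65 ± 0.16 against Het (adjusted p = 0.0757) and 0.50 ± 0.18 against Sham (adjusted p = 0.438), and DESeq2 called the first of them (adjusted p = 0.0165). Whether the KO difference of Dnmt3b is larger in MPP2 than in HSC was tested directly: it was larger by 0.43 ± 0.23 on the log2 scale, with an adjusted p of 0.718. Of the 50-base windows in its exons, 8.49% also occur elsewhere in the genome, and a transcript on the other strand overlaps it.

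Together, the genes whose KO libraries all lay above the Het libraries were Dnmt3a, Dnmt3b and Tdg in MPP1 (3 of 9, against 8.49% of all genes) and Dnmt3a, Dnmt3b and Uhrf1 in MPP2 (3 of 9, against 9.06%). All KO libraries lay below the Het libraries for Tet2 and Tet3 in MPP2 (2 of 9, against 5.6% of all genes). Against Sham, KO libraries lay above without overlap for 6 of 9 genes in HSC (15.8% of all genes), 4 in MPP1 (18.6%) and 2 in MPP2 (13.6%), and below for Tet2 in MPP1 (20%) and Tet3 in MPP2 (9.87%). The values of Tdg rest on at most 66 counts in a library.

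The 3 TET enzymes oxidise methylated cytosine, the first step of active demethylation. Tet1 (mm9, chromosome 10, 62267318 to 62361866, minus strand) stood at 85.1, 62.8 and 62.5 CPM in HSC KO libraries, 67.7, 66.9 and 54.3 CPM in Het and 75.3 and 55 CPM in Sham libraries, and over all 24 libraries it ranged from 39.7 to 85.1 CPM. MPP1 held 69.3, 84.7 and 62.2 CPM in KO, 64.6, 57.3 and 62.3 CPM in Het and 64.6 and 62.1 CPM in Sham libraries, and MPP2 held 59.8, 59 and 60.8 CPM in KO, 51.9, 60.4 and 44.5 CPM in Het and 39.7 and 53.5 CPM in Sham libraries. KO library 2_3 was the highest MPP1 library and Sham library 2_3 the lowest MPP2 library. Its KO and Het libraries overlapped in each cell type, with log2 differences of 0.16 ± 0.17, 0.23 ± 0.17 and 0.19 ± 0.17 in HSC, MPP1 and MPP2 (adjusted p = 0.772, 0.66 and 0.993).

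Tet2 (mm9, chromosome 3, 133126643 to 133207354, minus strand), the TET gene best known as a brake on stem cell expansion, ranged from 60.6 to 89.8 CPM over all 24 libraries. HSC held 71.8, 74.3 and 73.9 CPM in KO, 65.2, 79.1 and 67.9 CPM in Het and 67.7 and 61.5 CPM in Sham libraries, and the log2 difference between KO and Het was 0.052 ± 0.13 (95% interval -0.23 to 0.34). MPP1 held 61.6, 67.9 and 69 CPM in KO, 69.8, 72.4 and 68.5 CPM in Het and 80.3 and 71.9 CPM in Sham libraries, with KO below both Sham libraries and overlapping Het. The log2 difference from Het there was -0.086 ± 0.13 (95% interval -0.37 to 0.20). Both intervals lie within 0.4 of 0 on the log2 scale. MPP2 held 69.1, 60.6 and 74.7 CPM in KO, 76.3, 89.8 and 80.3 CPM in Het and 68.9 and 76.3 CPM in Sham libraries. Every KO library was there below every Het library, with a log2 difference of -0.27 ± 0.13 and an adjusted p of 0.892, but not below both Sham libraries.

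Tet3 (mm9, chromosome 6, 83312367 to 83391672, minus strand), the most abundant TET gene per length, ranged from 54.4 to 152 CPM. HSC held 132, 86.4 and 96.6 CPM in KO, 90.2, 61.2 and 87.5 CPM in Het and 86.2 and 54.4 CPM in Sham libraries, with a log2 difference of 0.40 ± 0.22 against Het (adjusted p = 0.416). MPP1 held 89.6, 124 and 98.7 CPM in KO, 148, 75.1 and 87.7 CPM in Het and 96.5 and 78.5 CPM in Sham libraries. Het library 1 was the highest MPP1 library and the log2 difference was 0.0082 ± 0.22, a sign that turned with another scaling. In MPP2, KO libraries held 100.3, 120.1 and 126 CPM, below the 152, 129 and 129 CPM of Het and the 137 and 139 CPM of Sham libraries without overlap, yet the log2 differences of -0.24 ± 0.22 against Het (adjusted p = 0.993) and -0.26 ± 0.25 against Sham (adjusted p = 1) did not pass. The difference between the KO effects in MPP2 and HSC was -0.64 ± 0.31 (adjusted p = 0.692).

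The glycosylases act after the TET enzymes or on deaminated methylcytosine. Mbd4 (mm9, chromosome 6, 115790715 to 115803389, minus strand), which removes thymine and uracil mispaired at CpG sites, ranged from 36.0 to 59.1 CPM over all libraries. In HSC it stood at 51, 57.4 and 39.1 CPM in KO, 59.1, 36.3 and 38.1 CPM in Het and 36 and 40.2 CPM in Sham libraries. MPP1 held 38.8, 52.9 and 46.6 CPM in KO, 50.1, 40.3 and 44.1 CPM in Het and 41.7 and 45.5 CPM in Sham libraries, and MPP2 held 47.6, 55 and 48.6 CPM in KO, 49.5, 50.5 and 53.5 CPM in Het and 48.8 and 51.1 CPM in Sham libraries. KO and Het overlapped in each cell type, and the log2 differences were 0.14 ± 0.18, 0.039 ± 0.18 and -0.021 ± 0.18 in HSC, MPP1 and MPP2, the middle one of a sign that turned with another scaling.

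Tdg (mm9, chromosome 10, 82092573 to 82113544, plus strand), which excises the oxidised bases that TET enzymes make, was barely read. It had 0 to 66 counts per library and exceeded 1 CPM in 10 of 24 libraries. HSC values were 1.09, 1.3 and 1.08 CPM in KO, 1.23, 0 and 1.49 CPM in Het and 0.937 and 0.33 CPM in Sham libraries, and the 95% interval of KO against Het there ran from -2.23 to 2.93 on the log2 scale. MPP1 held 0.876, 0.793 and 1.59 CPM in KO, 0.119, 0.645 and 0.476 CPM in Het and 0.425 and 2.05 CPM in Sham libraries, and MPP2 held 0.87, 0.936 and 1.55 CPM in KO, 2.04, 0.858 and 0.578 CPM in Het and 0.943 and 1.12 CPM in Sham libraries. No difference of Tdg could be judged at these counts. Of the 4835 windows of 50 bases in its exons, 49.204% occur elsewhere in the genome, the largest share of the 9 genes, against 0% for Dnmt1. How reads with several matches were counted is not given in the sources used here, and the count of Tdg depends on it. Tdg also overlaps Glt8d2 on the other strand.

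The KO effect did not differ between cell types beyond the test's threshold for any of the 9, with 0 calls in each of the 3 comparisons of KO effects. Among all genes, 0% were called for MPP1 minus HSC, 0.0326% for MPP2 minus HSC and 0% for MPP2 minus MPP1. An unadjusted p under 0.05 was reached by 1 of the 9, Dnmt1, for which the KO difference in MPP2 minus that in HSC was -0.60 ± 0.26 on the log2 scale (unadjusted p = 0.0318, adjusted p = 0.64), while 7.29% of all genes reached it there. In the comparisons of MPP1 with HSC and of MPP2 with MPP1, 0 of the 9 and 4.87% and 2.39% of all genes reached it. Uhrf1 gave -0.99 ± 0.47 (95% interval -1.98 to 0.012) in the same comparison, and DESeq2 called 0 of the 9 in any of the 3.

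Across the sorted populations, the maintenance pair and Tet3 were higher in MPP2 than in HSC. Among Het libraries Dnmt1 rose by 1.21 ± 0.19 (adjusted p = 3.18e-05), Uhrf1 by 1.87 ± 0.34 (adjusted p = 0.000836) and Tet3 by 0.78 ± 0.22 (adjusted p = 0.0149), while 18% of all genes were called, 9.59% with a rise. Dnmt1 averaged 1021 ± 153 CPM in MPP2 Het and 442 ± 74.6 CPM in HSC Het libraries (SD, n = 3 each), and Uhrf1 averaged 294 ± 26.3 CPM in MPP2 Het and 80.4 ± 34.9 CPM in HSC Het libraries. MPP1 lay between them at 701 ± 208 CPM of Dnmt1 and 183 ± 63.7 CPM of Uhrf1. MPP1 against HSC gave 0 calls of 9 in Het (0.014% of all genes), with Dnmt1 at 0.67 ± 0.19 (adjusted p = 0.234) and Uhrf1 at 1.19 ± 0.34 (adjusted p = 0.288). Those 2 genes had an unadjusted p under 0.05 there (9.89% of all genes), and DESeq2 called Uhrf1. MPP2 against MPP1 in Het gave 0 calls of 9 as well (7.49% of all genes), with 1 gene, Dnmt1, at an unadjusted p under 0.05 (18.9% of all genes) and called by DESeq2 (log2 difference 0.54 ± 0.19 and adjusted p = 0.0761 in edgeR's test). Without a block, edgeR's test therefore separated the ends of this order for Dnmt1 and Uhrf1 in Het, and not its neighbouring steps. With the pool of mice as a block, both genes passed edgeR's test in both steps. MPP1 against HSC then gave 0.64 for Dnmt1 (adjusted p = 0.00575) and 1.21 for Uhrf1 (adjusted p = 0.000481). MPP2 against MPP1 gave 0.57 for Dnmt1 (adjusted p = 0.00304) and 0.77 for Uhrf1 (adjusted p = 0.00371). The Tet3 call was lost without HSC Het library 2_3 (0.62, adjusted p = 0.1) and when MPP2 Het library 1 was left out (0.69, adjusted p = 0.069). It was also lost without both libraries with few detected genes (0.62, adjusted p = 0.075).

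The other members did not pass between MPP2 and HSC in Het. Dnmt3a was at -0.061 ± 0.14 (95% interval -0.36 to 0.24), Dnmt3b at 0.11 ± 0.16 (-0.24 to 0.46) and Tet1 at -0.27 ± 0.17 (-0.63 to 0.093) on the log2 scale. Tet2 was at 0.22 ± 0.13 (-0.07 to 0.50) and Mbd4 at 0.20 ± 0.18 (-0.18 to 0.58). Adjusted p over these 5 ran from 0.314 to 0.865, and Tdg could not be judged.

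Sham libraries gave the same 3 genes in MPP2 against HSC, with 21.3% of all genes called (13.6% with a rise). Dnmt1 rose by 1.77 ± 0.24 (adjusted p = 3.8e-06), Uhrf1 by 2.55 ± 0.43 (adjusted p = 0.000332) and Tet3 by 0.97 ± 0.27 (adjusted p = 0.0111). The Tet3 call was lost without HSC Sham library 4 (0.68, adjusted p = 0.171) and without MPP2 Sham library 2_3 (0.99, adjusted p = 0.0617), where the lone library is assumed to vary like the other groups, and it also missed the threshold with limma on the authors' matrix (0.61, adjusted p = 0.0821). Dnmt1 also rose in MPP2 against MPP1, by 0.87 ± 0.23 (adjusted p = 0.0102, 14.9% of all genes called, 9.08% with a rise), a call lost without any 1 of the 4 libraries (adjusted p from 0.0558 to 0.0657). Its log2 change in those runs was 0.81 to 0.92, close to the value from all libraries, and the spread of the lone library is taken from the other groups. MPP1 against HSC gave 0 calls of 9 (0.00466% of all genes), where Dnmt1 and Uhrf1 had an unadjusted p under 0.05 (4.64% of all genes) and were called by DESeq2.

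In KO libraries 2 of the 9 were called between the ends of this order. For MPP2 against HSC, Dnmt1 rose by 0.61 ± 0.19 (adjusted p = 0.0468) and Dnmt3b by 0.54 ± 0.16 (adjusted p = 0.0429), with 6.04% of all genes called (3.39% with a rise). Uhrf1 differed by 0.89 ± 0.33 (adjusted p = 0.143), and with the pool of mice as a block it rose by 0.95 (adjusted p = 0.000617). It was also called with DESeq2 (0.87, adjusted p = 0.0185), with the compared groups alone (0.97, adjusted p = 0.0191) and without HSC KO library 1, alone (1.20, adjusted p = 0.0493) or together with HSC Het library 2_3 (1.20, adjusted p = 0.0106). Tet3 differed by 0.14 ± 0.22 (95% interval -0.33 to 0.61). That the step is smaller in KO than in Het is the same contrast as the difference of KO effects given above, which passed for none of the 9. The calls of Dnmt1 and Dnmt3b were both lost without HSC KO library 2_3 (0.53 and 0.50), HSC KO library 4 (0.48 and 0.41), MPP2 KO library 1 (0.61 and 0.43), library 2_3 (0.66 and 0.58) or library 4 (0.57 and 0.60). Without HSC KO library 1 both held, at 0.85 and 0.73. MPP1 against HSC and MPP2 against MPP1 gave 0 calls of 9 in KO (0% and 0.969% of all genes), with 1 gene each at an unadjusted p under 0.05 and 0 called by DESeq2. These genes were Dnmt3b at 0.55 ± 0.16 in MPP1 against HSC (2.42% of all genes reached that p) and Dnmt3a at -0.30 ± 0.14 in MPP2 against MPP1 (10.5%). Tet1 ran the other way in Sham libraries, at 39.7 and 53.5 CPM in MPP2 and 75.3 and 55 CPM in HSC. Its log2 difference was -0.48 ± 0.21 (adjusted p = 0.101) and DESeq2 called it (adjusted p = 0.0441), while in KO it was -0.23 ± 0.17 and in Het -0.27 ± 0.17.

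**Figure D4:**
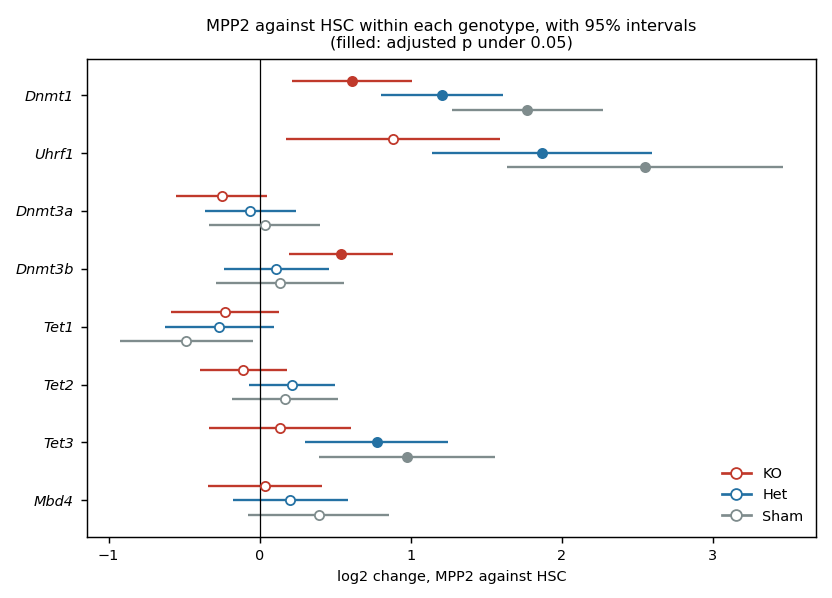
Log2 change of MPP2 against HSC (horizontal axis) for 8 of the 9 genes within KO, Het and Sham, with approximate 95% intervals; filled points have an adjusted p under 0.05. For Dnmt1 the change was 0.61 in KO, 1.21 in Het and 1.77 in Sham, and of the 3 genotypes Dnmt3b is called in KO; Tdg is left out for its wide intervals.

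Partners of the 9 genes were read from lists of known pathway members. Of 9 maintenance partners, 0 passed in KO against Het in HSC, MPP1 or MPP2 (medians 0.25, 0.19 and 0.18). Nearest in HSC were Hells, the remodeller that opens chromatin for DNMT1, at 1.20 ± 0.28 (adjusted p = 0.055) and its partner Cdca7 at 0.71 ± 0.19 (adjusted p = 0.0639). Against Sham, 3 of the 9 rose in HSC, beside 1.9% of all genes: Hells (1.40 ± 0.32), Lig1 (1.17 ± 0.27) and Cdca7 (0.89 ± 0.21). In MPP2 against HSC among Het libraries, where 18% of all genes were called and 9.59% rose, 4 of the 9 rose and 0 fell: Lig1, the replicative DNA ligase (1.36 ± 0.23), Hells (1.49 ± 0.28), Pcna, the sliding clamp (0.95 ± 0.21), and Cdca7 (0.61 ± 0.19). Of 20 S phase genes, 19 rose and 0 fell in the same comparison.

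Of 15 base excision repair genes, 0 passed in KO against Het in any cell type, with medians of 0.34 in HSC, 0.32 in MPP1 and 0.052 in MPP2. The glycosylase Neil3 differed by 1.16 ± 0.30 in HSC (adjusted p = 0.0644) and the ligase Lig3 by 0.56 ± 0.16 (adjusted p = 0.086). In MPP2 against HSC in Het, 4 rose, Neil3 (2.56 ± 0.31), the flap endonuclease Fen1 (1.42 ± 0.22), Lig3 (0.75 ± 0.16) and the strand-break sensor Parp1 (0.57 ± 0.15), and the glycosylase Neil2 fell (-2.06 ± 0.69), beside the 18% of all genes called there. Against Sham, 2 of the 15, Neil3 (2.04 ± 0.36) and Fen1, rose in HSC KO libraries, beside 1.9% of all genes. Of 9 methyl-CpG readers, 0 passed in KO against Het in any cell type (nearest in HSC were Zbtb33 at 0.42 ± 0.16 and Zbtb4 at -0.61 ± 0.25), while in MPP2 against HSC in Het Mbd3 (0.66 ± 0.15) and Mbd2 (0.61 ± 0.16) rose and Zbtb4 (-1.83 ± 0.26) and Zbtb38 (-0.43 ± 0.14) fell.

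Of 9 TET cofactors and partners, 0 passed in KO against Het in any cell type. Idh2, which makes the TET cosubstrate in mitochondria, differed by 0.45 ± 0.16 in HSC (adjusted p = 0.179) and 0.47 ± 0.16 in MPP1 (adjusted p = 0.399). In MPP2 against HSC in Het, Gadd45a, a stress protein linked to demethylation, rose by 0.87 ± 0.29 and Cxxc5, a CpG-binding protein, fell by 0.64 ± 0.19. Of 10 genes of methyl donor metabolism, 0 passed in KO against Het in any cell type. In MPP2 against HSC in Het, 3 of them rose (the folate enzyme Mthfd1, 1.41 ± 0.24, Ahcy, which clears the product of methylation, 1.02 ± 0.22, and Mat2a, which makes the methyl donor, 0.68 ± 0.17). For the 5 lists of partners these 0 calls in KO against Het stand beside 0.615%, 0.0559% and 0.415% of all genes in HSC, MPP1 and MPP2. Their calls in MPP2 against HSC in Het stand beside 18% of all genes called, 9.59% of all genes with a rise.

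Summed levels of markers of other cells are given as a description, since 0 genes of these lists passed the test in KO against Het. How often the sums of other lists separate between groups was not measured. The summed level of 12 neutrophil markers in MPP2 was 124 to 177 CPM in KO, against 212 to 3549 CPM in Het and 240.1 to 318 CPM in Sham libraries, with the highest value in Het library 2_3. In HSC it was 96.8 to 168 CPM in KO, 61.6 to 598 CPM in Het and 61.1 to 334 CPM in Sham libraries. The 6 late erythroid markers tested summed in MPP2 to 187 to 350.2 CPM in KO, 445 to 694 CPM in Het and 487 to 1111 CPM in Sham libraries, and in HSC to 13.4 to 21.9 CPM in KO, 19.6 to 283 CPM in Het and 15.6 to 20.4 CPM in Sham libraries. In both lists and in MPP2, every KO library was below every Het library. Klf1 and Ermap of the erythroid list rose in MPP2 against HSC in Het (2.31 ± 0.71 and 2.46 ± 0.78), beside 9.59% of all genes. Ctsg of the neutrophil list rose there as well (4.34 ± 1.42). Whether the sorted progenitors or other cells hold these mRNAs cannot be told apart in bulk libraries. MPP1 KO libraries also lay below the Het libraries in late erythroid markers (11.7 to 18.8 CPM in KO and 28.5 to 147 CPM in Het), B cell markers (10.1 to 12.4 CPM in KO and 13.9 to 18.6 CPM in Het) and T and NK cell markers (25.4 to 35.1 CPM in KO and 35.7 to 38.8 CPM in Het). The MPP1 Sham libraries held 19.5 to 28.9 CPM of late erythroid markers. They overlapped KO in B cell markers (11.6 to 12.4 CPM) and in T and NK cell markers (27.0 to 35.9 CPM). The 9 stroma and endothelium markers in HSC ran the other way, at 581 to 721 CPM in KO, 367 to 499 CPM in Het and 333 to 351 CPM in Sham libraries. That list holds Vwf, which stem cells themselves express. B cell markers (8 genes) summed to 3.62 to 18.6 CPM, T and NK cell markers (8) to 15.7 to 51.2 CPM and macrophage markers (8 of 9 tested) to 7.53 to 41.6 CPM over all groups, and of these markers Vpreb3 was at 0 in MPP2 KO libraries. The 7 sort markers summed in MPP2 to 773 to 926 CPM in KO and 648 to 885 CPM in Het libraries, and 1 of them, Ly6a, which encodes Sca-1, rose in MPP2 KO against Sham (2.42 ± 0.49, adjusted p = 0.0128). The part of any of these lists in the KO values of the 9 genes was not tested.

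The genes most like each member over the 24 libraries, among 10257 genes with a mean of at least 5 CPM, are given by Pearson's r of log2 CPM as a description, since all points share their libraries and scaling. Atad2 and Bub1b were most like Dnmt1 (r = 0.99 for both), and Mcm2 and Lig1 most like Uhrf1 (r = 0.99 for both). Dnmt3a was nearest to Atp2a3 (r = 0.87) and Pik3cg (0.86), and Dnmt3b to Tagln2 (0.85) and Tpm3 (0.84). Tet1 was nearest to Arid1b (0.87) and Etv6 (0.87), Tet2 to Igsf6 (0.75) and Atp8b4 (0.71), and Tet3 to Sptb (0.90) and Cdk6 (0.90). Mbd4 was nearest to Cenpl (0.80) and Sec23ip (0.80), a likeness that was absent within MPP2 (r = -0.11 and 0.0044, n = 8). For Tdg, at its low counts, Dhdds (0.82) and Ap5b1 (0.81) were nearest. Within single cell types (n = 8 each) the lowest r of Dnmt1 or Uhrf1 with these genes was 0.84, between Uhrf1 and Lig1 in MPP2.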

How the data were processed

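RNA was measured in 24 libraries of 9 groups (HSC, MPP1 and MPP2 by KO, Het and Sham), with replicates labelled 1, 2_3 and 4. The authors deposited raw counts per gene for each library, and per the submitters' processing notes worked on mm9 with TopHat2 2.0.9, Bowtie 1.0.0, Trimmomatic 0.33, FastQC, featureCounts, R 3.1.2 and edgeR. Reads were paired, 50 bases long. A normalized matrix of 12186 genes deposited by the authors, which holds 8 of the 9 genes and whose values are a signal, served as an alternative, and 0 columns of samples were left unused. Counts were joined by symbol and analysed in R 4.3.3 with edgeR 4.0.16: filterByExpr by group (least count 10), TMM scaling, 1 quasi-likelihood model with 9 group means (15 residual degrees of freedom), and two-sided F tests adjusted over 21456 genes in each of 21 comparisons, with a threshold of 0.05. SEs were taken from each log2 change and its F statistic, and 95% intervals from the SEs, so both are approximate. DESeq2 1.42.0 and limma 3.58.1 served for alternatives, as did RLE scaling, no filter, replicate blocks, the compared groups alone and leaving out libraries. The scripts were tested on simulated data.

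Same-numbered KO and Het libraries deviated from their group means with correlations of -0.17 to 0.42 (median 0.27), of which 5 of 9 were above 0.1. Among differently numbered KO and Het libraries 3 of 18 were above 0.1 (median -0.086). These values do not settle whether the numbers pair KO with Het. The main fit has no block, and the replicate block is given as an alternative. Across cell types, all 3 same-numbered pairs were above 0.1 for each pair of cell types in KO and for HSC with MPP2 in Het, and there a fit with the pool as a block is given beside a result whose call it changes. This fit is also given for Dnmt1 and Uhrf1 in the Het comparisons with MPP1, where the pairs numbered 4 were below 0.1. The 9 genes, the 13 lists and the motifs were chosen with earlier results of these data known. In each main comparison up to 4 list members past the threshold were named by adjusted p, or up to 2 by value, and for each member the 2 genes of highest r. Positions are from GENCODE on mm9. The result of 1 gene of the methyl donor list is not reported here.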

Additional observations from a re-analysis of the deposited data

How the results depend on the processing

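The number of the 9 genes past the threshold changed by more than 1.5 times (or from 0) in 26 of 150 alternatives that keep every group's libraries or leave out a pair, and in 16 of 132 that leave out a single library. In KO against Het in HSC the main count of 0 became 3 against the mean of Het and Sham (Dnmt1, Uhrf1 and Dnmt3a) and 2 (Dnmt1 and Uhrf1) with DESeq2, with limma on the authors' matrix and with the replicate block, and 0 to 2 without single libraries. In KO against Het in MPP2 it became 1 (Dnmt3b) against the mean of Het and Sham, with DESeq2 and with the replicate block. KO against Sham in HSC gave 0 to 3 without single libraries, against 2. Other counts that moved were MPP1 against HSC in Het (main 0, then 2 with either block and 1 with DESeq2 or the authors' matrix), MPP2 against MPP1 in Het (main 0, then 2 with either block, 1 without the filter, with DESeq2 or with the authors' matrix, and 0 to 2 without single libraries), MPP1 against HSC in Sham (main 0, then 2 with either block or DESeq2 and 1 with the compared groups alone) and MPP2 against MPP1 in Sham (main 1, then 3 with the compared groups alone or the block by pool, 2 with the replicate block, DESeq2 or the authors' matrix, in the last Dnmt3a and Tet1 and not Dnmt1, and 0 without each single library). In MPP2 against MPP1 in Het, the 1 call by limma on the authors' matrix was a fall of Dnmt3a (-0.37, adjusted p = 0.0383). Without the filter and with DESeq2 it was a rise of Dnmt1. MPP2 against HSC in KO (main 2) gave 1 with the authors' matrix, which was a fall of Dnmt3a and neither Dnmt1 nor Dnmt3b, and 0 to 3 without single libraries. The replicate block was checked although the numbers were not taken to pair KO with Het. Under it, in KO against Het, Dnmt1 differed by 0.72 (adjusted p = 0.00326) and Uhrf1 by 1.32 (adjusted p = 0.00226) in HSC. Dnmt3b differed by 0.64 (adjusted p = 0.0272) in MPP2. Over all genes that comparison in HSC gave 69 rises and 63 falls, against 533 and 193 with the replicate block, 381 and 267 with DESeq2, 320 and 275 with the authors' matrix, 3 and 7 with the compared groups alone, and 2 and 2 without both libraries with few detected genes. The pairing by pool changed no other call than those given.

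Signs turned for 10 of 277 values of single genes outside the single-library runs, all of them of Tet2, Tet3, Tdg or Mbd4: in HSC KO against Het, Tet2 was -0.055 with the authors' matrix, and without both libraries with few detected genes Tdg was -0.19 and Mbd4 -0.010. In MPP1, Tet3 was -0.035 with RLE scaling, -0.035 with DESeq2 and -0.12 with the authors' matrix, and Mbd4 was -0.0082, -0.0085 and -0.11. In MPP2, Tdg was 0.033 against the mean of Het and Sham. Without single libraries Tet1 ran from -0.0063 to 0.23 in HSC, Tet2 from -0.0023 to 0.14, Tdg from -0.23 to 0.92 in HSC and -0.37 to 0.64 in MPP2, Tet3 from -0.18 to 0.36 in MPP1, and Mbd4 from -0.071 to 0.17 in MPP1 and -0.089 to 0.018 in MPP2. The authors' matrix moved the median of all genes by -0.16 in KO against Sham in HSC and by -0.18 in MPP2 against HSC in Sham. Tdg had at most 66 counts in a library, and each Sham group holds 2 libraries. The cause of each change was not tested.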
